A study of Mus musculus with 3 samples.

Results

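The negative feedback regulators of MAP kinase signalling examined here were 6 dual-specificity phosphatases (Dusp1, Dusp2, Dusp4, Dusp5, Dusp6 and Dusp10) and 2 Sprouty proteins (Spry1 and Spry2). They were chosen by name from these families, with earlier results of these data known, and make up 8 of the 18029 genes in the count table. Other genes of the families were read from separate lists. All 8 were detected in donor T cells from mouse spleens during graft-versus-host disease (GVHD), in which the T cells of a graft attack the recipient. Transcripts were counted cell by cell as unique molecular identifiers (UMIs, 1 for each captured mRNA molecule).

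B6D2F1 recipients were given total body irradiation, then B6 bone marrow with B6 T cells and a small number of TEa T cells. TEa cells are CD4+ T cells with a single transgenic T cell receptor (TCR), bred on a Rag1-deficient background, which respond to a peptide of the recipient. From day 0 to day 6 the mice were injected daily with saline, with cyclosporin A (CSA) at 5 mg/kg or with CSA at 50 mg/kg. CSA is a calcineurin inhibitor that keeps the transcription factor NFAT out of the nucleus. Spleens were taken on day 7 from 6 mice per group, and the spleens of 2 mice were joined into 1 pool, so that each group has 3 pools. Every group carries the irradiation and the transplant, and no mouse without a transplant is among the samples. CD4+ and CD8+ donor T cells were sorted, the pools of a group were marked with hashtag antibodies, and each group was then captured in 1 droplet reaction. Treatment and capture therefore cannot be told apart.

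The table holds 21204 cells, of which 10371 are in the CD4 set and 10833 in the CD8 set. The 280 TEa cells were kept apart. Without them the pools held 3994968 to 7592334 UMIs from 875 to 1479 cells in CD4 and 4392100 to 11454636 UMIs from 692 to 1615 cells in CD8. Cells were read more deeply with dose: the median number of UMIs per cell was 3097 in CD4 cells under saline, 4396 under 5 mg/kg and 5979.5 under 50 mg/kg, and 4108, 6121.5 and 7183 in the same order in CD8. The libraries held T cells by their markers, with Cd8a at 0 in the CD4 sums and Cd4 at 0 in the CD8 sums of every group. Whether cells were placed in a set by these genes was not tested, so the zeros are not read as a measure of purity. Cd8b1, which encodes the other chain of the CD8 coreceptor, was present in the CD4 sums, at 123 CPM (UMIs per 1000000) in saline, 98.7 under 5 mg/kg and 26.2 under 50 mg/kg, and its part in the CD4 results was not tested. A strong second hashtag was carried by 2.86% to 9.02% of the cells of a lineage and treatment group, and 218 of 20986 distinct cell barcodes occurred in more than 1 capture.

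A T cell receptor that meets its antigen switches on the MAP kinases ERK, JNK and p38 through phosphorylation, and the same signal induces the genes that shut it off. Dual-specificity phosphatases remove phosphate from both the threonine and the tyrosine of an active MAP kinase. Dusp1, Dusp2, Dusp4 and Dusp5 act in the nucleus and are induced within a short time of stimulation, Dusp6 acts on ERK in the cytoplasm, and Dusp10 acts on p38 and JNK. Sprouty proteins act further upstream, at the membrane, where they damp the passage from receptors through Ras to ERK.

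Promoter sequences are shown for Dusp2 and Dusp5, the members that rose in both lineages at the higher dose of CSA, and for Dusp6 and Spry1, which did not, since calcineurin, the target of CSA, acts through a transcription factor that binds DNA at GGAAA. RefSeq start sites on build mm10 were given for 7 of the 8 members, and Dusp4 is named only. The sequences run 5′ to 3′ on the strand of the gene and end at the base before the start of the annotated exon. They lie at chr2:127335909-127336158 on the plus strand for Dusp2, chr19:53528895-53529108 on the plus strand for Dusp5, chr10:99262981-99263230 on the plus strand for Dusp6 and chr3:37639697-37639946 on the plus strand for Spry1. Capitals mark letters of a motif found on either strand.
Dusp2: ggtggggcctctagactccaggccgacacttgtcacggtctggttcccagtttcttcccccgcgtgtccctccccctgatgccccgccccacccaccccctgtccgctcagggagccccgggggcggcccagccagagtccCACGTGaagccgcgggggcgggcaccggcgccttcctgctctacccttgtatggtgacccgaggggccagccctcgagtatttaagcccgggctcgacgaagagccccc
Dusp5: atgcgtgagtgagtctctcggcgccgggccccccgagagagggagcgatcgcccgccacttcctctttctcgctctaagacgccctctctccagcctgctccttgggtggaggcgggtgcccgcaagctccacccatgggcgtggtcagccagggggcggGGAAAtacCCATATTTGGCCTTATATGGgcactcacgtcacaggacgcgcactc
Dusp6: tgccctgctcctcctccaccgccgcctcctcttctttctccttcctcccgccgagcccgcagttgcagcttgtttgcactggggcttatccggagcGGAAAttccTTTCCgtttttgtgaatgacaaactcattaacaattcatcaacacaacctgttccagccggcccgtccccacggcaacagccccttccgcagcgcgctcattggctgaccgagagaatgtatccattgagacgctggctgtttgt
Spry1: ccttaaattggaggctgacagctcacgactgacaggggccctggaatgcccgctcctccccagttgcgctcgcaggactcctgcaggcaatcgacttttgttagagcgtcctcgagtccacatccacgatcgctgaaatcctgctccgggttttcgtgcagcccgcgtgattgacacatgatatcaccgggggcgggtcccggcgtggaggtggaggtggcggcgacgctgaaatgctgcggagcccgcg
The search covered the 250 bases before each RefSeq start on both strands, and its motifs were the NFAT core GGAAA, the AP-1 site TGANTCA, the cAMP response element TGACGTCA, the E-box CACGTG, the CArG box bound by serum response factor, and the glucocorticoid receptor half-site AGAACA. Dusp5 held 2 CArG boxes, which start 82 and 72 bases before the start site, and 1 NFAT core; a CArG box occurred in 1.40% of 27025 promoters of the same length. Dusp2 held 1 E-box, as did Dusp1 beside a cAMP response element, against 6.05% and 1.62% of all promoters. The NFAT core was found in Dusp5, Dusp6 and Spry2 and occurs in 55.6% of all promoters, and Spry1 and Dusp10 held none of the 6 motifs. These matches are letters in a window and were not tested for binding.

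Dusp2 rose with dose in both lineages, to 2.23 times its saline level in CD4 and 3.02 times in CD8 at 50 mg/kg, and was the member with the largest rise at that dose. Dusp5 rose at 50 mg/kg, more in CD4 than in CD8. Dusp4 was lower than saline at 5 mg/kg in both lineages. At 50 mg/kg it was above saline in CD4 and overlapped with saline in CD8. Spry1 fell at 50 mg/kg to a few molecules per pool. Dusp6 rose in CD4 and fell in CD8 at 50 mg/kg, Dusp10 fell slightly in both, and Dusp1 passed no test between groups. These directions hold with the scaling used throughout, which is described next; scaled by library size alone, the rise of Dusp2 at 5 mg/kg, the CD8 rise of Dusp5 and the CD4 rises of Dusp4 and Dusp6 did not pass.

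**Figure D1:**
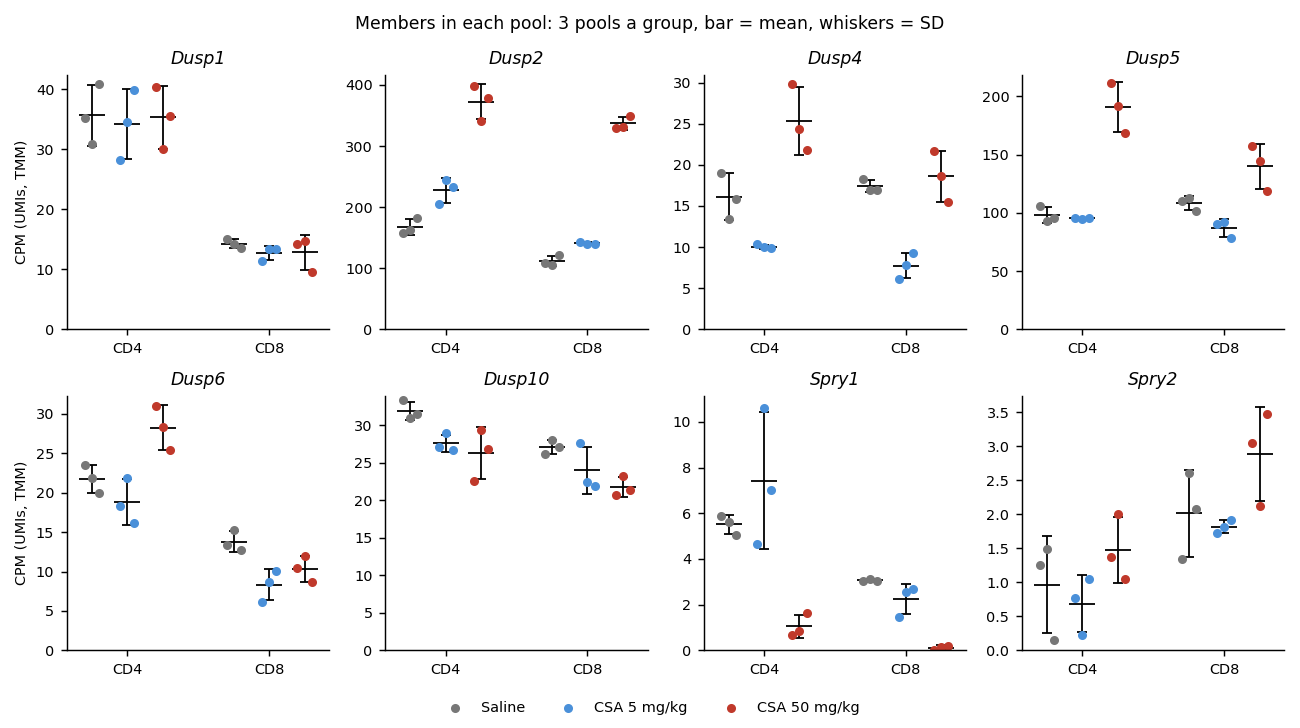
Level of each member in each pool, in CPM (UMIs of the gene per 1000000 UMIs) after TMM scaling (vertical axis, linear, from 0), for CD4 and CD8 cells under saline (grey), CSA 5 mg/kg (blue) and CSA 50 mg/kg (red). Each point is 1 pool, the bar is the mean and the whiskers are the SD of 3 pools. Dusp2 stands higher at 50 mg/kg than in every saline pool of both lineages, and Spry1 stands lower.

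Levels are given as CPM (UMIs of the gene per 1000000 UMIs), scaled by the trimmed mean of M-values (TMM), which places the middle of all genes at no change between libraries. Differences are log2 changes with their standard error (SE) from a quasi-likelihood test in edgeR on the UMIs summed per pool, with p-values adjusted by Benjamini-Hochberg over all genes tested and a threshold of 0.05. Sums over a lineage move with the mix of cells as well as with the RNA per cell, which such sums cannot tell apart. At 50 mg/kg against saline, 6 of 7 members tested in CD4 passed, beside 70.5% of the 10568 genes tested, and 5 of 8 in CD8, beside 74.0% of 10841 genes. At 5 mg/kg, 2 of 7 passed in CD4 and 4 of 8 in CD8, beside 51.7% and 60.2% of all genes. Between the doses, 5 of 7 passed in CD4 and 4 of 8 in CD8, beside 41.2% and 41.0%. Most genes passed against saline, so the number of members that passed says little about them, and the sizes and directions are what follows.

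Dusp2 encodes PAC-1, a nuclear phosphatase first known from activated T cells. In CD4 its level in the 3 saline pools was 158, 162 and 183 CPM, at 5 mg/kg 204, 244 and 234, and at 50 mg/kg 399, 341 and 378. In CD8 it was 109, 105 and 121 in saline, 143, 139.7 and 140.3 at 5 mg/kg, and 330.2, 331 and 349.7 at 50 mg/kg. No pool of one group overlapped with those of another in either lineage. The CD4 mean went from 167 ± 13.3 (SD, n = 3) to 227 ± 20.4 and 373 ± 29.2, and the CD8 mean from 112 ± 8.50 to 141 ± 1.47 and 337 ± 11.0. The log2 change at 50 mg/kg was 1.15 in CD4 (SE 0.06, edgeR adjusted p = 1.27e-12) and 1.60 in CD8 (SE 0.05, edgeR adjusted p = 7.93e-15). The change at 5 mg/kg was 0.44 in CD4 (SE 0.07, edgeR adjusted p = 1.47e-05) and 0.33 in CD8 (SE 0.05, edgeR adjusted p = 3.86e-05). The step from 5 to 50 mg/kg also passed, by 0.71 in CD4 and 1.26 in CD8 (edgeR adjusted p = 1.61e-08 and 2.76e-12). The rise at 5 mg/kg rests on the scaling: with library size alone Dusp2 was 0.08 higher in CD4 (edgeR adjusted p = 0.306) and 0.09 lower in CD8 on the log2 scale (-0.09, edgeR adjusted p = 0.146).

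Dusp5 encodes a nuclear phosphatase that acts on ERK alone. Its CD4 level was 106, 92.7 and 95.2 CPM in saline and 95.8, 94.5 and 95.5 at 5 mg/kg, then 211, 192 and 169 at 50 mg/kg. The pools of saline and 5 mg/kg overlapped, and those of 50 mg/kg stood above both. In CD8 the saline pools held 110.4, 113 and 102, the pools at 5 mg/kg 90.7, 91.9 and 78.0, and those at 50 mg/kg 157, 144 and 119. No CD8 group overlapped with another, with the lowest level at 5 mg/kg. At 50 mg/kg Dusp5 rose by a log2 change of 0.97 in CD4 (SE 0.07, edgeR adjusted p = 4.58e-11) and 0.36 in CD8 (SE 0.08, edgeR adjusted p = 0.000614). Its log2 change at 5 mg/kg was -0.03 in CD4 (edgeR adjusted p = 0.750) and -0.33 in CD8 (SE 0.09, edgeR adjusted p = 0.00380). The CD8 rise at 50 mg/kg turned to -0.17 with library size scaling (edgeR adjusted p = 0.0784), whereas the CD4 rise stayed at 0.53 (edgeR adjusted p = 6.46e-07).

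Dusp4 encodes the nuclear phosphatase MKP-2, which acts on ERK and JNK. In CD4 it held 19.1, 13.3 and 15.9 CPM in saline, 10.3, 9.94 and 9.84 at 5 mg/kg, and 29.8, 24.4 and 21.8 at 50 mg/kg. In CD8 it held 18.3, 17.0 and 17.0 in saline, 6.16, 7.78 and 9.30 at 5 mg/kg, and 21.6, 18.6 and 15.5 at 50 mg/kg. In both lineages the pools at 5 mg/kg lay below all others. The fall at 5 mg/kg was -0.66 in CD4 (SE 0.17, edgeR adjusted p = 0.00226) and -1.11 in CD8 (SE 0.15, edgeR adjusted p = 5.45e-06) on the log2 scale. From 5 to 50 mg/kg Dusp4 rose by 1.33 in CD4 (SE 0.15, edgeR adjusted p = 5.12e-07) and 1.19 in CD8 (SE 0.15, edgeR adjusted p = 7.36e-06). Against saline, 50 mg/kg was 0.67 higher in CD4 (SE 0.13, edgeR adjusted p = 0.000128), and 0.08 in CD8 did not pass (SE 0.12, edgeR adjusted p = 0.556). With library size scaling the CD4 rise against saline was 0.23 (edgeR adjusted p = 0.125) and the CD8 value became a fall of -0.45 (edgeR adjusted p = 0.00283), while the steps between the doses remained at 1.25 in CD4 and 1.08 in CD8 (edgeR adjusted p = 1.61e-06 and 2.69e-05).

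Dusp1 encodes MKP-1, the nuclear phosphatase of p38 and JNK that glucocorticoids also induce. In CD4 the saline pools held 35.2, 30.8 and 40.9 CPM, those at 5 mg/kg 28.1, 34.6 and 39.9, and those at 50 mg/kg 40.5, 30.0 and 35.5. All 3 groups overlapped. In CD8 the level was lower, with 15.0, 14.3 and 13.5 in saline, 11.3, 13.4 and 13.4 at 5 mg/kg, and 14.3, 14.7 and 9.50 at 50 mg/kg. Against saline the log2 change at 50 mg/kg was -0.01 in CD4 (SE 0.12, edgeR adjusted p = 0.926) and -0.18 in CD8 (SE 0.14, edgeR adjusted p = 0.262). With library size scaling Dusp1 passed as lower at 50 mg/kg in CD4 (-0.45, edgeR adjusted p = 0.00208) and CD8 (-0.71, edgeR adjusted p = 0.000198).

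Dusp6 encodes MKP-3, the cytoplasmic phosphatase of ERK. In CD4 it held 23.5, 21.8 and 19.995 CPM in saline, 18.3, 21.9 and 16.2 at 5 mg/kg, and 31.0, 28.4 and 25.4 at 50 mg/kg. In CD8 it held 13.4, 15.3 and 12.7 in saline, 6.16, 8.69 and 10.1 at 5 mg/kg, and 10.4, 11.9 and 8.68 at 50 mg/kg. The pools at 50 mg/kg stood above all saline pools in CD4 and below all of them in CD8. The log2 change at 50 mg/kg was 0.38 in CD4 (SE 0.11, edgeR adjusted p = 0.00449) and -0.43 in CD8 (SE 0.14, edgeR adjusted p = 0.0122). The lower dose gave -0.21 in CD4 (edgeR adjusted p = 0.164) and -0.68 in CD8 (SE 0.16, edgeR adjusted p = 0.00146). The CD4 rise turned to -0.06 with library size scaling (edgeR adjusted p = 0.651). The CD8 fall at 50 mg/kg failed the test without pool 3 of that group (edgeR adjusted p = 0.0811) or without saline pool 2 (edgeR adjusted p = 0.0756), and neither DESeq2 (adjusted p = 0.0672) nor edgeR on cells outside the cycling clusters (adjusted p = 0.171) passed it.

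Dusp10 encodes MKP-5, which acts on p38 and JNK. Its CD4 level was 33.3, 31.0 and 31.4 CPM in saline, 27.1, 28.9 and 26.7 at 5 mg/kg, and 22.6, 29.4 and 26.9 at 50 mg/kg. Its CD8 level was 26.2, 28.0 and 27.1 in saline, 27.6, 22.4 and 21.9 at 5 mg/kg, and 20.7, 23.2 and 21.3 at 50 mg/kg. The pools at 50 mg/kg lay below all saline pools in both lineages. The fall at 50 mg/kg was -0.27 in CD4 (SE 0.10, edgeR adjusted p = 0.0149) and -0.32 in CD8 (SE 0.09, edgeR adjusted p = 0.00488) on the log2 scale. Without pool 1 of the 50 mg/kg group the CD4 fall was -0.18 and did not pass (edgeR adjusted p = 0.107), nor did it with DESeq2 (adjusted p = 0.118). Outside the cycling clusters the edgeR adjusted p was 0.0601 in CD4 and 0.058 in CD8.

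Spry1, the inhibitor of the passage from Ras to ERK that T cell receptor signals induce, gave few UMIs. In CD4 its pools held 28, 38 and 33 UMIs in saline, 18, 47 and 40 at 5 mg/kg, and 4, 5 and 11 at 50 mg/kg, which is 5.86, 5.64 and 5.04, then 4.65, 10.6 and 7.03, then 0.689, 0.834 and 1.64 CPM. In CD8 they held 25, 31 and 29 UMIs in saline and 6, 14 and 21 at 5 mg/kg. The pools at 50 mg/kg held 0, 1 and 2 UMIs. Every pool at 50 mg/kg lay below every pool of the other groups in both lineages. In the CD8 pool with no UMI, a count of 0 allows up to 0.359 CPM. The pooled counts, 20 against 99 UMIs in CD4, put Spry1 5.07 times lower at 50 mg/kg than in saline (exact 95% interval for counting error only, 3.11 to 8.65). The CD8 counts, 3 against 85 UMIs, put it 25.1 times lower (8.29 to 124). The edgeR test over pools passed in both lineages (adjusted p = 7.66e-06 in CD4 and 1.38e-07 in CD8). It did not pass at 5 mg/kg, with a log2 change of 0.45 in CD4 (edgeR adjusted p = 0.156) and -0.39 in CD8 (edgeR adjusted p = 0.244). The CPM of the CD8 pools at 5 mg/kg lay below those of all saline pools. With library size scaling the CD8 fall at 5 mg/kg passed (-0.81, edgeR adjusted p = 0.0156).

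Spry2, the other Sprouty, gave 17, 10 and 27 UMIs in CD4 over the 3 pools of saline, 5 mg/kg and 50 mg/kg, and fell under the filter on low counts there. In CD8 its pools held 11, 26 and 20 UMIs in saline, 7, 10 and 15 at 5 mg/kg, and 22, 16 and 34 at 50 mg/kg. Saline overlapped with both doses, and the CPM of the pools at 50 mg/kg lay above those at 5 mg/kg. The log2 change at 50 mg/kg was 0.51 against saline (SE 0.28, edgeR adjusted p = 0.103) and 0.67 against 5 mg/kg (SE 0.31, edgeR adjusted p = 0.100). Neither passed at this depth.

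**Figure D2:**
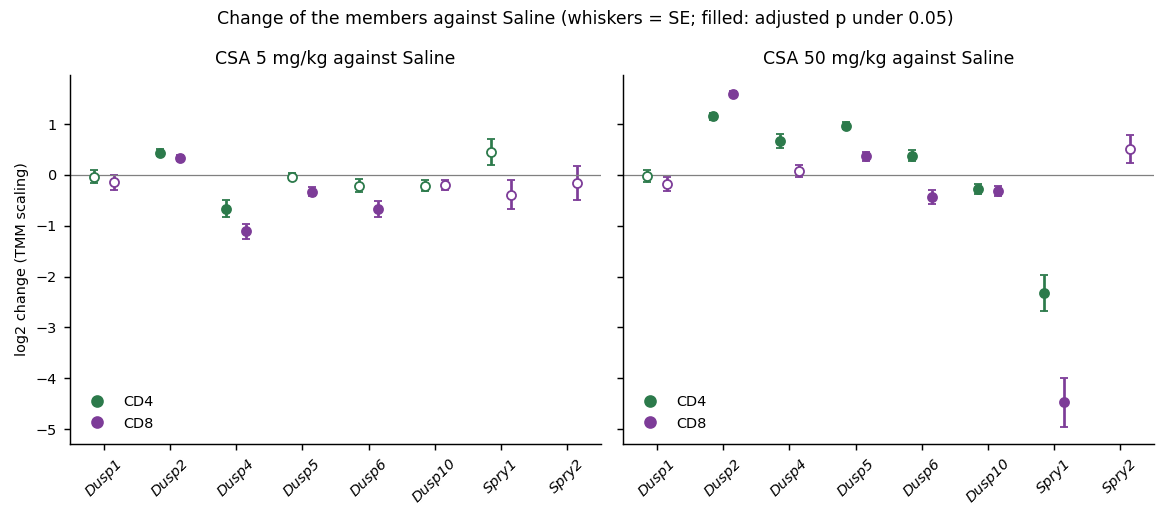
Log2 change of each member against saline after TMM scaling (vertical axis) at 5 mg/kg (left) and 50 mg/kg (right), in CD4 (green) and CD8 (purple). Whiskers are the SE over 3 pools against 3, and filled points have an adjusted p under 0.05 in edgeR. Spry2 is shown in CD8, where it was tested, and at 50 mg/kg Dusp2 has the highest and Spry1 the lowest value of each lineage.

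The choice of scaling sets where no change lies. With TMM the median log2 change of all genes tested against saline was near 0 (-0.01 in CD4 at 50 mg/kg), and with library size scaling it was -0.37 at 5 mg/kg and -0.45 at 50 mg/kg in CD4, and -0.43 and -0.53 in CD8. The split of calls moved with it: at 50 mg/kg 34.7% of CD4 genes passed as higher and 35.8% as lower with TMM, against 15.1% and 59.0% with library size. In CD8 the split was 37.1% and 36.9% with TMM and 15.6% and 62.7% with library size. Under both scalings at 50 mg/kg, Dusp2 was higher in CD4 and CD8, Dusp5 higher in CD4, and Dusp10 and Spry1 lower in both lineages. Dusp6 was lower in CD8 under both scalings.

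**Figure D3:**
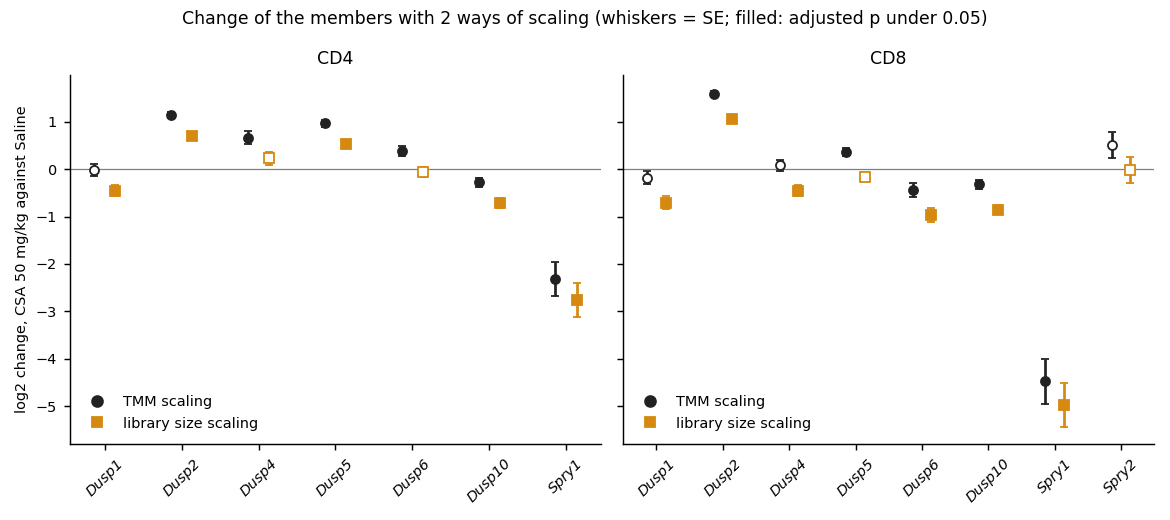
Log2 change of each member at 50 mg/kg against saline (vertical axis) in CD4 (left) and CD8 (right), with TMM scaling (black circles) and library size scaling (orange squares). Whiskers are the SE and filled points have an adjusted p under 0.05 in edgeR. Every orange square lies lower than its black circle, and Dusp2 passes as higher with both in each lineage.

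The 2 lineages came from the same pools, so the difference between their responses was tested in 1 fit of 18 sums with the pool as a block. The CD4 sums held Cd8b1, at 123 CPM in saline and 26.2 under 50 mg/kg, against 1049 and 3133 in the CD8 sums. Its part in the differences between lineages was not tested. At 50 mg/kg 5 of 8 members passed, beside 19.8% of the 11001 genes tested, and at 5 mg/kg 1 of 8, beside 3.65%. Dusp2 rose more in CD8 than in CD4, by 0.42 on the log2 scale (SE 0.07, edgeR adjusted p = 5.26e-05). The change in CD8 was lower than in CD4 for Dusp5 (-0.63, SE 0.07, edgeR adjusted p = 6.89e-07), Dusp4 (-0.60, SE 0.14, edgeR adjusted p = 0.00332), Dusp6 (-0.83, SE 0.16, edgeR adjusted p = 0.000615) and Spry1 (-2.20, SE 0.69, edgeR adjusted p = 0.0249). No difference passed for Dusp1, Dusp10 or Spry2 (edgeR adjusted p = 0.495, 0.740 and 0.894). Dusp5 alone passed at 5 mg/kg (-0.33, SE 0.08, edgeR adjusted p = 0.0218), and did not without saline pool 2 (edgeR adjusted p = 0.154) or without pool 3 of the 5 mg/kg group (edgeR adjusted p = 0.148). The Spry1 difference rests on 3 UMIs in CD8 at 50 mg/kg, and without pool 1 or pool 3 of that group its edgeR adjusted p was 0.0723 or 0.135. Without the pool block it was 0.0575, and that of Dusp5 at 5 mg/kg was 0.230 (edgeR). DESeq2 passed Dusp2 and Dusp5 at 50 mg/kg (adjusted p = 0.000746 and 6.01e-05), not Dusp4, Dusp6 or Spry1 (adjusted p = 0.434, 0.155 and 0.293).

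The same fit compared the levels of the lineages within each group. In saline, 6 of 8 members differed, beside 40.4% of genes. Lower in CD8 than in CD4 were Dusp1 (log2 difference -1.24, SE 0.11, edgeR adjusted p = 2.21e-09), Dusp2 (-0.51, SE 0.05, edgeR adjusted p = 1.26e-08), Dusp6 (-0.56, SE 0.11, edgeR adjusted p = 0.000260) and Spry1 (-0.76, SE 0.22, edgeR adjusted p = 0.00680). Higher in CD8 were Dusp5 (0.23, SE 0.05, edgeR adjusted p = 0.000968) and Spry2 (1.21, SE 0.45, edgeR adjusted p = 0.0338). At 50 mg/kg the Dusp2 difference had narrowed to -0.09 (SE 0.04, edgeR adjusted p = 0.137), Dusp5 had become lower in CD8 (-0.39, SE 0.05, edgeR adjusted p = 3.63e-07) and Dusp6 stood at -1.40 (SE 0.12, edgeR adjusted p = 5.95e-10). Dusp1 was lower in CD8 in each group, by -1.40 at 5 mg/kg and -1.43 at 50 mg/kg (edgeR adjusted p = 1.01e-08 and 6.49e-10). DESeq2 passed 2 of the 6 saline differences, Dusp1 and Dusp2. The Spry2 difference in saline failed the edgeR test without saline pool 2 or pool 3 (adjusted p = 0.0831 and 0.322), and Dusp5 without saline pool 2 (adjusted p = 0.0564).

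Members were next followed over the clusters that the authors made from the same counts, so cluster levels are a description without a test. CD8 C8, called exhausted (TEX), had the highest Ccl3, Ccl4, Ifng and Tnfrsf9 of the CD8 clusters, and CD8 C5 the highest Tcf7 and Slamf6. CD8 C7 and CD4 C9, called naive (TN), had the highest Ccr7 of their lineage, and CD4 C11 the highest Foxp3. The CD8 cluster numbers were matched to C0 to C8 by such markers, which therefore do not check the CD8 names. No inhibitory receptor was among these markers, and the name exhausted is used only as a label. Levels between clusters are CPM of library total over all pools in which the cluster had 10 cells or more.

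CD8 C8 had the highest mean of the CD8 clusters for 6 of 8 members. Dusp2 reached 433 ± 157 CPM there (SD, n = 8 pools), next to 236 ± 94.5 in C0, the Cd226hi effectors, and 91.4 ± 47.3 in the naive C7, the lowest. Dusp4 stood at 59.5 ± 37.9 in C8, next to 26.8 ± 10.9 in C4, the cycling Cd226hi cells. The other members highest in C8 were Dusp5 (157 ± 83.6), Dusp6 (31.0 ± 12.8), Spry1 (10.7 ± 8.78) and Spry2 (9.05 ± 9.21). These SDs run over the pools of all 3 groups and so also hold differences between doses. Measured so, Dusp2 alone stood over 1 SD of C8 above the next cluster. The gap to the next mean was under 1 SD of C8 for Dusp4, Dusp6 (C4 at 20.3 ± 4.03), Dusp5 (C0 at 135 ± 35.5), Spry1 and Spry2. Within saline pools alone, C8 was highest for 5 members (Dusp2, Dusp4, Dusp6, Spry1 and Spry2), with Dusp2 at 363 ± 28.8 and Dusp4 at 97.5 ± 14.5, and Dusp5 was highest in C0 at 177 ± 22.8. Dusp10 had its highest CD8 mean in C4 (42.7 ± 7.98) and then in the naive C7 (40.8 ± 13.5), with 19.3 to 25.1 in the other clusters. Dusp1 had its highest CD8 means in C7 (18.7 ± 11.5) and C0 (16.8 ± 7.43), which differed by less than 1 SD. In saline alone C0 led for Dusp1 (24.1 ± 8.12), with C7 at 10.4 ± 18.01 (n = 3).

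In CD4 no cluster led for most members. Dusp2 was highest in C7, the cytotoxic CD4 cells, at 400 ± 124 CPM (SD, n = 9 pools). Next were C0, the Cd226hi effectors, at 374 ± 145 and the Tcf7hi C2 at 333 ± 186. All 3 lay within 1 SD of each other, with an SD that also holds differences between doses. In saline alone C7 stood at 350 ± 91.4, over 1 SD of C7 above C0 (223 ± 34.4) and C2 (214 ± 31.6). Dusp5 was highest in C0 (196 ± 69.1) and lowest in the naive C9 (52.9 ± 24.0). Dusp4 was highest in C6, the cycling Cd226hi cells (47.0 ± 20.3), and in C7 (37.5 ± 23.6), and lowest in C9 (3.60 ± 5.69). Dusp6 led in C4, the follicular helper cells (47.1 ± 22.4), Dusp10 in C9 (65.1 ± 33.8), and Spry1 in C7 (18.7 ± 13.7, 62 UMIs) and C4 (13.2 ± 10.4, 18 UMIs). Dusp1 was highest in C12, called Th17 (73.8 ± 18.7, n = 3 pools), and in C9 (65.6 ± 21.5). In saline pools alone Dusp4 was highest in C7 (58.0 ± 20.9) and then in C6 (36.5 ± 4.52), and Dusp5 in C11 (197, 1 pool) and then in C0 (192 ± 9.63). Dusp2 and Spry1 in C7, Dusp6 in C4, Dusp10 in C9 and Dusp1 in C12 (1 pool) also led there.

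**Figure D4:**
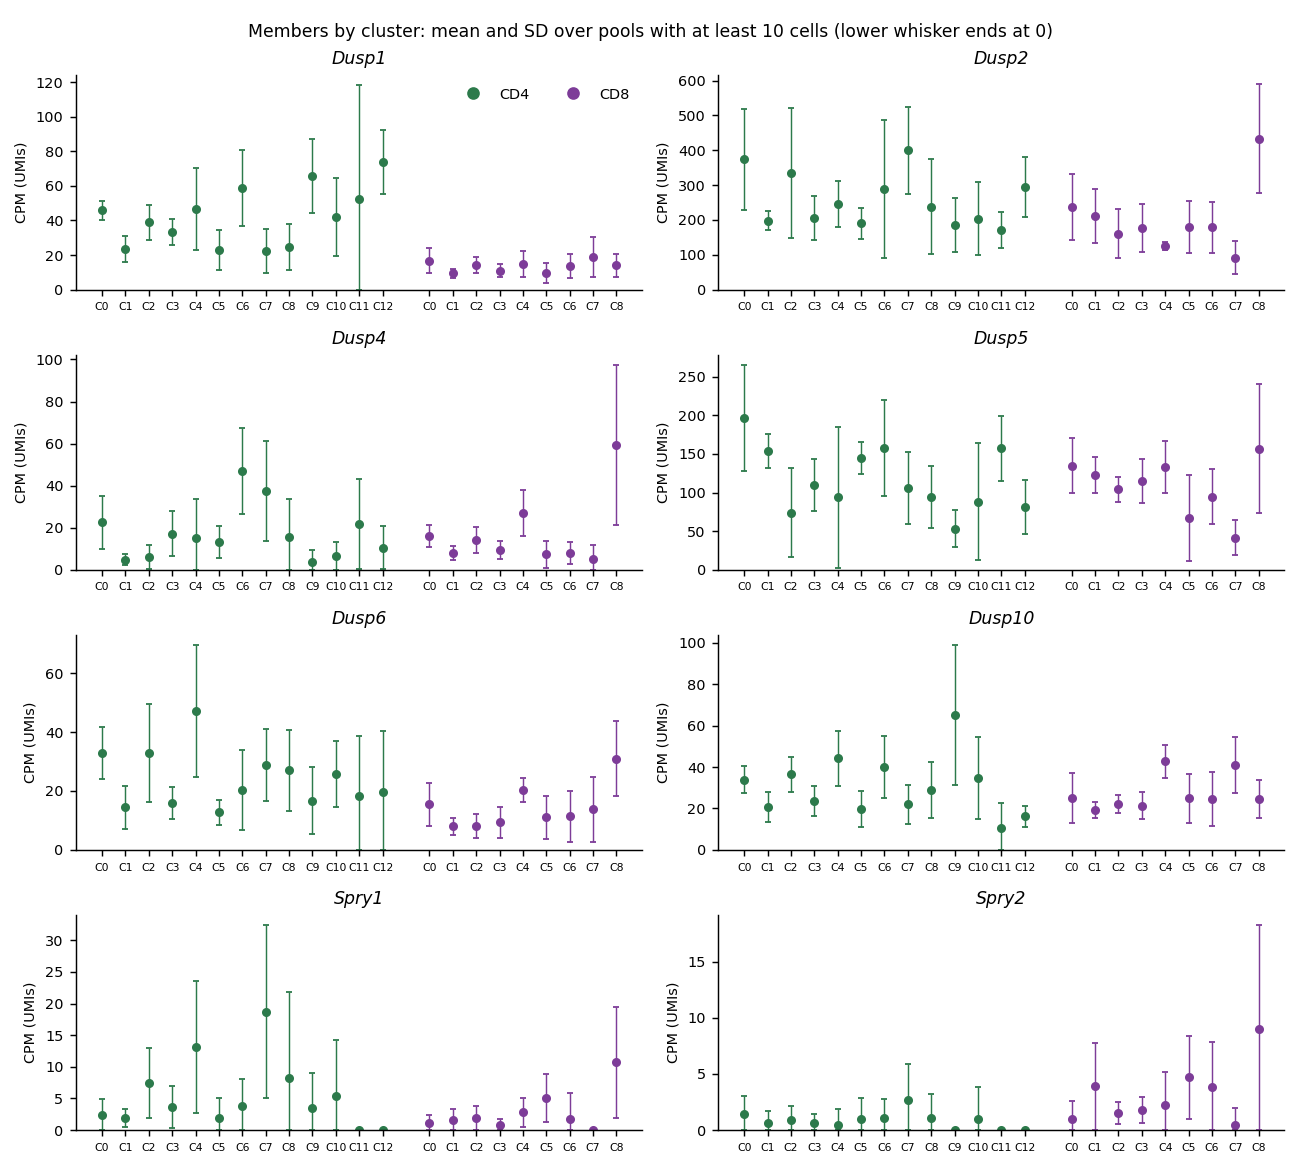
Level of each member in each cluster of CD4 (green, C0 to C12) and CD8 (purple, C0 to C8), in CPM of library total (vertical axis, linear, from 0). Points are means and whiskers the SD over pools of all 3 groups that held 10 or more of its cells. The lower whisker ends at 0. CD8 C8 is the highest CD8 point for Dusp2, Dusp4, Dusp5, Dusp6, Spry1 and Spry2.

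Genes whose cluster means ran most like those of a member were found over 21 clusters, with Pearson's r across clusters of log2 values among 6011 genes of at least 20 CPM (6012 for Dusp4, Spry1 and Spry2, whose own mean is under that level). The points share 9 pools and 3 captures. For Dusp2 the 3 nearest were Orai1 (r = 0.850), the calcium channel of the T cell receptor response, Zap70 (0.842), its kinase, and Unc45a (0.841). For Dusp6 they were Egr1 (0.848), a transcription factor induced by ERK, Tnf (0.803) and Hivep2 (0.791). For Spry1 they were Egr2 (0.892), Rel (0.855) and Gnl1 (0.849), and for Spry2 Crtam (0.835), Nr4a2 (0.820) and Cd160 (0.801). Dusp5 ran with Epas1 (0.903), Sytl2 (0.891) and 2510039O18Rik (0.886), and Dusp4 with Eif3a (0.913), Ipo7 (0.904) and Hdlbp (0.880). Dusp1 ran with Runx1 (0.862), Tmem64 (0.856) and Cytip (0.855), and Dusp10 with Rab3ip (0.877), Ssh2 (0.861) and Fbxl12 (0.849).

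Changes with dose were then tested within each cluster, on sums of pools with at least 10 cells and with TMM scaling inside the cluster. Neither Sprouty gene had the counts to be tested in any cluster. Of the pairs of member and cluster tested at 50 mg/kg, 20 of 40 in CD4 passed as higher and 0 as lower, beside 30.2% of all pairs of gene and cluster that passed in either direction, 14.8% as higher and 15.4% as lower. In CD8, 13 of 32 passed as higher and 2 as lower, beside 43.4% in either direction, 21.3% as higher and 22.1% as lower. At 5 mg/kg 2 of 40 passed in CD4, beside 13.0%, and 5 of 38 in CD8, beside 20.4%.

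Dusp2 at 50 mg/kg passed as higher in 9 of 11 CD4 clusters and in 8 of 8 CD8 clusters tested. The CD4 call in C4 was lost with library size scaling (edgeR adjusted p = 0.123) and without any 1 of 5 pools (edgeR adjusted p = 0.0696 to 0.162), and that in C8 with DESeq2 (adjusted p = 0.148), library size scaling (edgeR adjusted p = 0.0838) and without saline pool 1 (edgeR adjusted p = 0.0506). The call in CD8 C7 was lost with DESeq2 (adjusted p = 0.170) and without saline pool 2 (edgeR adjusted p = 0.107). In CD4 the largest log2 changes were 1.75 in C6, 1.73 in C0 and 1.58 in C2, and the median was 0.85. In C0 its level was 192 ± 30.1 CPM in saline, 371 ± 49.4 under 5 mg/kg and 638 ± 79.1 under 50 mg/kg (SD, n = 3), and no group overlapped with another. In C2 it was 205 ± 31.1, 219.7 ± 17.97 and 617 ± 90.8, with saline and 5 mg/kg overlapping. The naive C9 did not pass, with 223 ± 95.8 in saline and 233 ± 170.0 at 50 mg/kg (-0.01), and neither did C10, the Isg15hi cells (0.58). In CD8 the changes lay between 1.17 in C8 and 1.57 in C0. The exhausted C8 held 330.0 ± 18.6 in saline and 743 ± 62.7 at 50 mg/kg, and the naive C7 held 67.0 ± 12.9 and 158 ± 36.7. At 5 mg/kg Dusp2 passed in CD4 C0 (0.94, SE 0.12, edgeR adjusted p = 4.43e-08) and in CD8 C1 and C3 (0.45 and 0.29, edgeR adjusted p = 0.0221 and 0.0394). Neither CD8 call held with library size scaling (edgeR adjusted p = 0.133 and 0.642) or without saline pool 2 (edgeR adjusted p = 0.168 and 0.218).

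Dusp5 at 50 mg/kg passed as higher in 7 of 9 CD4 clusters, with a median log2 change of 1.00, and in 3 of 8 CD8 clusters, with a median of 0.24. With library size scaling the calls in CD4 C5 (0.09, edgeR adjusted p = 0.585) and CD8 C2 (-0.08, edgeR adjusted p = 0.556) were lost, and with DESeq2 that in CD4 C8 (adjusted p = 0.111). The changes were large in the Tcf7hi clusters of both lineages. In CD4 C2 the level was 44.5 ± 1.03 CPM in saline, 29.4 ± 5.52 under 5 mg/kg and 159 ± 30.2 under 50 mg/kg (SD, n = 3), and the log2 change at 50 mg/kg was 1.78. In CD8 C5 it was 38.1 ± 6.14, 24.7 ± 3.16 and 152 ± 48.5, with a log2 change of 1.90, from 76 cells at 50 mg/kg. The exhausted CD8 C8 went from 118 ± 49.5 to 291 ± 53.9 (1.27). In the effector cluster C0 the CD4 level rose from 165 ± 8.10 to 312 ± 83.3 (0.94), and in CD8 C0 it was 145 ± 19.6 in saline and 152 ± 8.24 at 50 mg/kg and did not pass. CD4 C4 passed with the largest change, 2.03, on 45 cells at 50 mg/kg. Without pool 1 of that group the change was 0.57 (edgeR adjusted p = 0.787).

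Dusp4 passed at 50 mg/kg as higher in CD4 C0 and C3 (log2 change 1.26 and 1.59) and CD8 C2 and C3 (0.59 and 0.93). The CD8 calls were lost with library size scaling (edgeR adjusted p = 0.393 and 0.188), and that in CD4 C3 without saline pool 2 (edgeR adjusted p = 0.0841). In CD8 C8, where it was most abundant, it was 88.9 ± 15.1 CPM in saline and 64.3 ± 21.4 at 50 mg/kg and did not pass. At 5 mg/kg CD8 C8 held 13.6 ± 1.58 (SD, n = 2 pools, 5 UMIs from 51 cells), a log2 change of -2.68 (SE 0.53, edgeR adjusted p = 0.000693). CD4 C7, the cytotoxic cells, also fell at 5 mg/kg, from 52.7 ± 18.7 to 15.2 ± 6.28 (-1.81, SE 0.41, edgeR adjusted p = 0.00214). It held 45.9 ± 17.7 at 50 mg/kg.

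Dusp6 rose at 50 mg/kg in CD4 C0, from 23.9 ± 1.82 to 48.2 ± 5.40 CPM (log2 change 1.02), and in CD4 C2 (0.83), and fell in CD8 C3, from 13.4 ± 2.23 to 6.89 ± 1.49 (-0.97, edgeR adjusted p = 0.0116). The Dusp6 call in CD4 C2 was lost with DESeq2 (adjusted p = 0.171), library size scaling (edgeR adjusted p = 0.0866), without pool 2 of the 50 mg/kg group (0.52, edgeR adjusted p = 0.250) and without saline pool 1 (edgeR adjusted p = 0.102), and that in CD8 C3 with DESeq2 (adjusted p = 0.147) and without pool 3 of either group (edgeR adjusted p = 0.0628 and 0.0679). Dusp10 fell in CD8 C0, from 31.8 ± 3.13 to 17.3 ± 3.09 (-0.86, edgeR adjusted p = 0.00293; DESeq2 adjusted p = 0.0563), and passed in none of 6 CD4 clusters. Dusp1 passed in none of 5 CD4 and 3 CD8 clusters. Spry1 UMIs in CD4 C2 were 21 in saline, 24 under 5 mg/kg and 2 under 50 mg/kg, in CD4 C0 12, 4 and 0, and in CD8 C8 8, 8 and 1. In CD4 C7, where Spry1 was most abundant, they were 18, 35 and 9. Not all clusters had their lowest Spry1 level at 50 mg/kg: in CD4 C4 the means were 5.62 ± 4.02, 17.3 ± 7.83 and 16.6 ± 15.2 CPM of library total, on 11, 5 and 2 UMIs, and the naive CD4 C9 had 1, 0 and 2 UMIs.

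**Figure D5:**
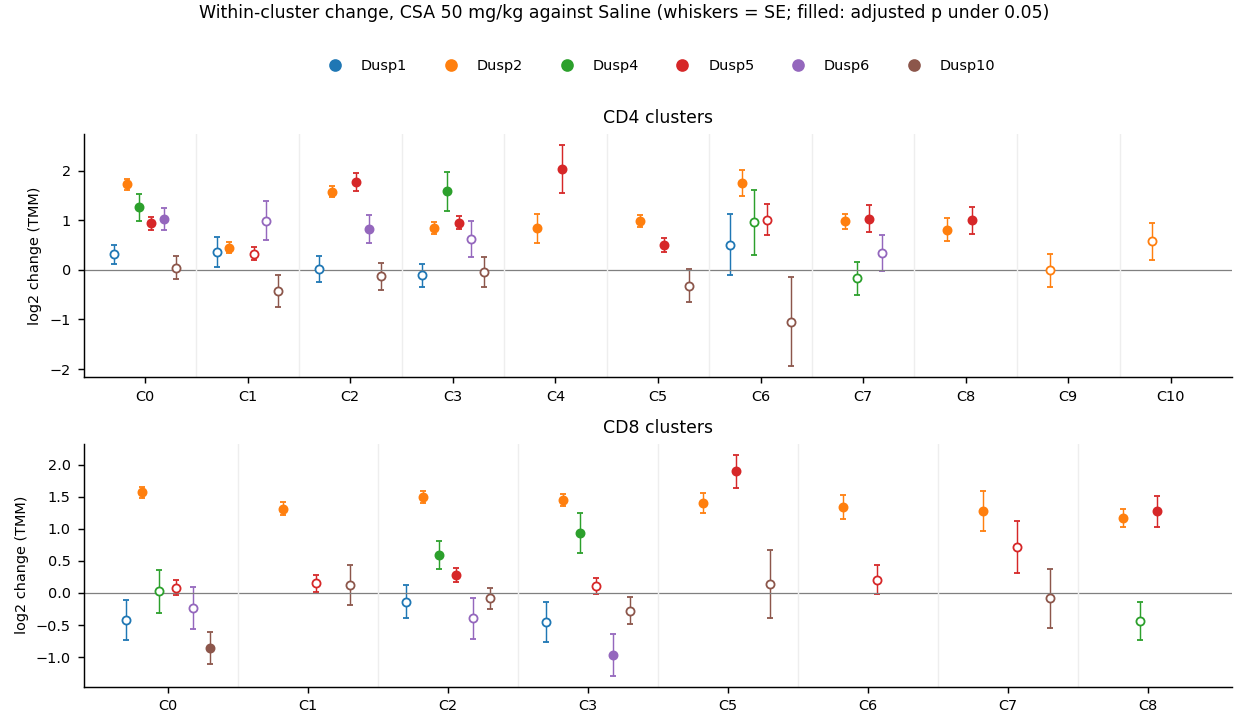
Log2 change of the 6 phosphatases at 50 mg/kg against saline within each cluster (vertical axis, TMM scaling inside the cluster), for CD4 (top) and CD8 (bottom). Whiskers are the SE, filled points have an adjusted p under 0.05 in edgeR, and a missing point means that the member was not tested there. Dusp2 (orange) is filled in 9 of 11 CD4 clusters and in all 8 CD8 clusters shown, and CD8 C4 had too few cells at 50 mg/kg.

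The share of cells with a UMI of a gene depends on depth, so each cell was also thinned to 2000 UMIs and shallower cells were left out (395, 452 and 80 CD4 cells and 121, 83 and 8 CD8 cells in saline, 5 mg/kg and 50 mg/kg). Thinned, Dusp2 was seen in 29.0% ± 2.00 of CD4 cells in saline, 29.7% ± 1.69 under 5 mg/kg and 38.8% ± 3.14 under 50 mg/kg (SD, n = 3 pools), and unthinned in 40.8%, 47.6% and 63.6%. In CD8 the thinned shares were 24.6% ± 0.805, 22.0% ± 1.25 and 40.3% ± 1.58, and the unthinned 42.5%, 49.1% and 73.7%. The thinned CD8 share of Dusp2 at 5 mg/kg went against its TMM level, so no order is read there. Dusp5 was seen in 18.9% ± 1.27, 14.8% ± 0.618 and 26.5% ± 3.40 of thinned CD4 cells. In CD8 its thinned share at 50 mg/kg (19.8% ± 2.40) lay under that of saline (22.4% ± 1.80), opposite to its TMM level, so no order is read. Spry1 was seen in 1.35%, 1.16% and 0.169% of thinned CD4 cells and in 0.735%, 0.303% and 0.0297% of thinned CD8 cells. No cell type that should lack Dusp2 is in the table. The naive clusters, with median depths of 1981 to 3216 UMIs in CD4 and 3499 to 4995 in CD8, had thinned Dusp2 shares of 26.5%, 33.5% and 21.8% in CD4 C9 and of 11.1%, 8.65% and 21.4% in CD8 C7.

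Clonotypes were read from TCR sequences and not from gene counts. The number of genes that passed depended on the cycling clusters, without which it was 499 in CD4 (1812 with them) and 263 in CD8 (1412). Cells whose clonotype was held by at least 2 cells of the same lineage and pool were compared with cells that held theirs alone, within pools and over the 3 groups. In CD4, 3 of 7 members tested passed, beside 18.6% of 9750 genes, and in CD8 1 of 7 did, beside 14.2% of 9911 genes. Dusp5 was higher in expanded clonotypes in CD4 (log2 difference 0.24, SE 0.05, edgeR adjusted p = 0.00149, higher in 7 of 9 pools) and in CD8 (0.18, SE 0.04, edgeR adjusted p = 0.00726, 8 of 9 pools). By group, the CD4 difference of Dusp5 was 0.20 in saline, 0.49 under 5 mg/kg and 0.03 under 50 mg/kg (edgeR adjusted p = 0.259, 0.00239 and 0.904), and the pools that went the other way were both at 50 mg/kg. In saline CD8 its level was 118 ± 5.79 CPM in expanded and 100.4 ± 4.97 in single clonotypes (SD, n = 3). Dusp4 was higher in expanded CD4 clonotypes (0.54, SE 0.14, edgeR adjusted p = 0.00732, 8 of 9 pools), with 21.9 ± 5.01 against 14.6 ± 2.69 in saline. It passed in no single group, with 0.58 in saline, 0.78 under 5 mg/kg and 0.26 under 50 mg/kg (edgeR adjusted p = 0.137, 0.165 and 0.511). Over the groups Dusp4 did not pass without pool 1 of the 5 mg/kg group (edgeR adjusted p = 0.105) or outside the cycling clusters (edgeR adjusted p = 0.0734). Dusp1 was lower in expanded CD4 clonotypes (-0.35, SE 0.09, edgeR adjusted p = 0.00589, higher in 2 of 9 pools), with 28.4 ± 3.24 against 38.2 ± 5.35 in saline. By group it was -0.43 in saline, -0.02 under 5 mg/kg and -0.59 under 50 mg/kg (edgeR adjusted p = 0.0910, 0.977 and 0.0103). Over the groups the Dusp1 difference did not pass with expansion set at 3 cells or more (edgeR adjusted p = 0.125), nor the CD8 difference of Dusp5 without the pool block (edgeR adjusted p = 0.0814). Over all groups Dusp2 did not pass in either lineage (-0.06 and -0.09, edgeR adjusted p = 0.385 and 0.0978). Within saline it was lower in expanded CD8 clonotypes, at 102 ± 8.17 against 121 ± 11.4 CPM (-0.24, edgeR adjusted p = 0.0160), and the CD8 difference was -0.04 at 5 mg/kg and -0.01 at 50 mg/kg (edgeR adjusted p = 0.899 and 1). The difference between the groups was not tested.

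The TEa cells, whose receptor and antigen are known, numbered 123 in saline, 130 under 5 mg/kg and 27 under 50 mg/kg and were not tested. Their levels are CPM of library total, without TMM scaling, and so are not on the scale of the other CD4 levels. Dusp2 stood at 183 CPM in saline (exact 95% interval of counting error 148 to 223), 193 at 5 mg/kg (163 to 227) and 344 at 50 mg/kg (272 to 428), and the interval at 50 mg/kg lay above the others. Dusp5 stood at 117 (89.6 to 149.9), 102 (80.6 to 127) and 161 (113 to 222), with intervals that overlap. Spry1 gave 6, 5 and 0 UMIs, where 0 allows up to 13.1 CPM at this depth.

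Other genes of these pathways were read from lists, to be set beside the shares of all genes tested at 50 mg/kg, which were 34.7% higher and 35.8% lower in CD4 and 37.1% higher and 36.9% lower in CD8. Among 12 other MAP kinase phosphatases and relatives tested at 50 mg/kg against saline, 6 passed as higher and 1 as lower in each lineage, with a median log2 change of 0.17 in CD4 and 0.23 in CD8, beside medians near 0 over all genes. Ptpn7, a tyrosine phosphatase of ERK and p38 in blood cells, rose by 0.26 in CD4. Among 12 Sprouty, Spred and Ras brakes, 2 were higher and 8 lower in CD4 (median -0.35) and 3 and 8 in CD8 (median -0.48). The ubiquitin ligase Cbl, a brake on receptor signals, fell from 96.2 to 46.3 CPM in CD4 and from 92.8 to 44.8 in CD8, and Cblb fell from 181 to 81.9 in CD8. Dok2, an adaptor that recruits a Ras brake, rose from 103 to 219.6 in CD4. Of 18 genes of the ERK cascade, 6 were higher and 11 lower in CD4 and 5 and 9 in CD8, and Lat, the adaptor that links the T cell receptor to Ras, rose from 468 to 969 in CD4 and from 352 to 702 in CD8. Of 17 JNK and p38 genes 3 were higher and 11 lower in CD4, and 4 and 9 in CD8, with Map3k1 at -1.28 and -1.10.

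Of 21 genes induced early by the T cell receptor, 5 were higher and 9 lower in CD4, and 9 and 8 in CD8, beside the same shares of all genes. The nuclear receptor Nr4a1 rose from 34.1 to 98.6 CPM in CD4 and from 14.3 to 51.9 in CD8, while its relative Nr4a2 fell from 41.2 to 6.72 in CD8 and Egr2 fell from 25.1 to 10.5 in CD4. Of the calcineurin and NFAT genes 7 of 9 were lower in CD4, beside 35.8% of all genes, and 6 of 8 in CD8, beside 36.9%, with Nfatc1 at -1.06 and -1.22. Glucocorticoid-responsive genes split, with Tsc22d3 higher (1.00 in CD4, 1.15 in CD8) and Fkbp5 lower (-0.50 and -0.66), and 2 of 7 were higher and 4 lower in CD4 and 3 and 5 of 8 in CD8.

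Immediate early genes can respond to the handling of tissue, so markers of dissociation and of other cell types were read beside them. The sums in this paragraph are CPM of library total, without the TMM scaling used for the log2 changes and calls. On that scale the median log2 change of all genes at 50 mg/kg was -0.45 in CD4 and -0.53 in CD8, so no direction is read from the sums. The summed level of 16 dissociation genes was 5023 to 5360 CPM in saline and 4577 to 4917 at 50 mg/kg in CD4, and 4191 to 4588 and 3605 to 4147 in CD8. Of these genes 6 of 13 tested passed as higher and 4 as lower in CD4, and 7 and 5 in CD8, with Ier2 higher in both (0.84 and 0.99). Erythroid markers summed to 3.21 to 14.8 CPM in saline and 27.7 to 37.0 at 50 mg/kg in CD4, and to 4.15 to 17.9 and 24.6 to 48.7 in CD8, and all 4 tested were higher in both lineages. B cell markers summed to 174 to 189 in saline and 255 to 270.4 at 50 mg/kg in CD4, with Ms4a1 at 0 at 50 mg/kg, and to 155 to 169 and 332 to 363 in CD8. Myeloid markers summed to 252 to 266 and 263 to 298 in CD4 and to 269.9 to 310.4 and 289 to 320.5 in CD8. NK markers summed to 6.01 to 6.43 and 0.444 to 1.32 in CD4 and to 5.14 to 8.81 and 1.57 to 2.08 in CD8. The part of these cells and of handling in the members' values was not tested.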

How the data were processed

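Splenic donor T cells were profiled by single cell RNA-Seq. The authors sorted CD4+ and CD8+ T cells, counted UMIs with Cell Ranger on the mouse genome mm10, assigned cells to pools by hashtag and clustered them with Seurat 3.0.0. They deposited UMI counts of 18029 genes in the kept cells, with hashtag counts, the fraction of mitochondrial UMIs, clusters, clonotypes and TEa calls. The kept cells are those their tables do not mark as doublets or dead, and no further cells were removed here, other than TEa cells, which were kept apart. The median of the deposited mitochondrial fraction lay between 1.61% and 1.82% in every lineage and group.

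Counts were summed per lineage and pool (n = 3 pools per group), and genes were kept by filterByExpr, scaled by TMM and tested with edgeR 4.0.16 (glmQLFit, glmQLFTest) in R 4.3.3, with Benjamini-Hochberg adjustment over all genes tested. The 9 pools of a lineage entered 1 fit. The comparison of lineages and of clonotypes had the pool as a block. P-values measure the spread between pools. The test was checked on simulated counts in which as many genes were raised as lowered. That check therefore does not bear on the choice of scaling. CD8 cluster numbers of the deposited table were matched to C0 to C8 by markers. All members are named. Of each other list, up to 3 genes with the largest change at 50 mg/kg among those that passed with a mean of at least 20 CPM could be named, and for each member the 3 genes with the most similar cluster means. Cluster means were taken on the log2 scale with 5 CPM added. The members and lists were chosen with earlier results of these data known. Alternatives were DESeq2 1.42.0, library size scaling, no filter on low counts, only the groups compared, a block for the hashtag number, cells outside the cycling clusters, cells of at least 2000 UMIs, cells without a strong second hashtag (over 0.5 of the first), TEa cells included, other cell minimums and each pool left out in turn. Exact intervals are at 95% and, like the limits set by a count of 0 (3 UMIs), cover counting error only. The level of 1 marker gene is not reported here.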

Additional observations from a re-analysis of the deposited data

Results flagged for a closer look

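The response to CSA differed between CD8 and CD4 cells for 5 of the 8 members at 50 mg/kg and for 1 at 5 mg/kg, by the test of the difference itself in edgeR with the pool as a block. Of all 11001 genes tested, 19.8% passed at 50 mg/kg and 3.65% at 5 mg/kg. DESeq2 passed Dusp2 and Dusp5 at 50 mg/kg, not Dusp4, Dusp6 or Spry1 (adjusted p = 0.434, 0.155 and 0.293). The edgeR calls of Spry1 at 50 mg/kg and Dusp5 at 5 mg/kg were lost when some single pools were left out. For Dusp2 the log2 change at 50 mg/kg was 0.42 higher in CD8 than in CD4 (edgeR adjusted p = 5.26e-05), a rise in both lineages. For Dusp5 it was -0.63 at 50 mg/kg (edgeR adjusted p = 6.89e-07) and -0.33 at 5 mg/kg (edgeR adjusted p = 0.0218), CD8 minus CD4. For Dusp4 the difference was -0.60 (edgeR adjusted p = 0.00332), with a rise in CD4 that passed and a CD8 value that did not. For Dusp6 it was -0.83 (edgeR adjusted p = 0.000615), with opposite directions in the 2 lineages under TMM scaling. For Spry1 it was -2.20 (edgeR adjusted p = 0.0249), on 20 UMIs in CD4 and 3 in CD8 at 50 mg/kg. The CD4 sums held Cd8b1, whose part in these differences was not tested.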

How the results depend on the processing

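Under the alternatives for which a value could be computed, 1666 of the named values kept their direction and their side of the threshold, 93 no longer passed, 15 newly passed and 48 changed sign; DESeq2 gave no adjusted p for 9, which are left out. The cause of these changes was not tested. Numbers of members that passed moved as follows. Shares of all genes are not beside each of these numbers, so they are not read as results about the members. With library size scaling 5 members passed in CD4 at 5 mg/kg (2 in the main analysis), and 4 pairs of member and cluster in CD4 (2) and 12 in CD8 (5) at that dose. With that scaling the median log2 change of all genes at 5 mg/kg was -0.37 in CD4 and -0.43 in CD8. Outside the cycling clusters 3 members passed in CD8 at 50 mg/kg (5), 2836 CD8 genes differed between the doses (4443), and 499 CD4 and 263 CD8 genes differed with clonotype size (1812 and 1412). For the difference between lineages, DESeq2 passed 0 members and 264 genes at 5 mg/kg (1 and 402) and 2 and 658 at 50 mg/kg (5 and 2173), and for the levels in saline 2 and 1933 (6 and 4445). DESeq2 passed 1 pair in the CD8 clusters at 5 mg/kg (5). Without the pool block, 0 members and 219 genes differed between lineages at 5 mg/kg, and 0 members passed in CD8 clonotypes (1). Unthinned, 12 of the 16 shares of cells were higher at 50 mg/kg than in saline (7). Leaving out each pool in turn, the difference between lineages at 5 mg/kg passed 0 to 1 members and 167 to 479 genes, and the CD8 clusters at that dose 0 to 7 pairs, with 0 when pool 3 of 5 mg/kg was left out.

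Changes of sign on the log2 scale with library size scaling were Dusp6 in CD4 at 50 mg/kg (-0.058), Dusp1 in CD4 between the doses (-0.055), Dusp2 in CD8 at 5 mg/kg (-0.089), and in CD8 at 50 mg/kg Dusp4 (-0.45), Dusp5 (-0.17) and Spry2 (-0.018), with Dusp2 in CD8 C3 at 5 mg/kg (-0.067) and Dusp5 in CD8 C2 at 50 mg/kg (-0.084). Outside the cycling clusters they were Dusp1 in CD4 at 5 mg/kg (0.014) and 50 mg/kg (0.14) and in CD8 at 5 mg/kg (0.020), Dusp10 in CD8 at 5 mg/kg (0.033), and in clonotypes Dusp2 in CD4 (0.087) and CD8 (0.17) and Dusp10 in CD8 (-0.19). Dusp1 in CD4 at 50 mg/kg was 0.0084 among cells with 2000 UMIs or more and 0.017 without cells with a strong second hashtag, Dusp1 in CD8 between the doses was 0.00072 with DESeq2, and Spry1 in CD4 clonotypes was -1.17 with at least 3 cells. Leaving out each pool, the values of results that changed sign ranged for Dusp1 in CD4 from -0.18 to 0.083 at 5 mg/kg, -0.12 to 0.11 at 50 mg/kg and -0.081 to 0.16 between the doses, and in CD8 from -0.29 to 0.029 at 50 mg/kg and -0.14 to 0.18 between the doses; for Dusp5 in CD4 at 5 mg/kg from -0.070 to 0.019; for Dusp10 in CD4 between the doses from -0.15 to 0.028; for Dusp4 in CD8 at 50 mg/kg from -0.037 to 0.21; and for Spry2 in CD8 at 5 mg/kg from -0.36 to 0.077. The lineage difference ranged at 5 mg/kg from -0.13 to 0.039 for Dusp10 and -0.21 to 0.75 for Spry2, and at 50 mg/kg from -0.40 to 0.019 for Dusp1 and -0.56 to 0.40 for Spry2. In clonotypes it ranged from -0.11 to 0.0043 for Dusp10 and -1.34 to 0.33 for Spry1 in CD4, and from -0.029 to 0.035 for Dusp10 in CD8.

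With the hashtag number as a replicate block, 2 members and 5413 genes passed in CD4 at 5 mg/kg (2 and 5467 without it), 6 and 7433 at 50 mg/kg (6 and 7454), and in CD8 4 and 6464 (4 and 6523) and 5 and 7977 (5 and 8024); Dusp6 in CD8 C3 at 5 mg/kg no longer passed. Deviations of pools with the same number correlated between -0.25 and 0.15. Pools with different numbers were not compared, so this range does not settle whether the numbers pair the pools. The labels give no pairing across groups. Single pools decided some calls: Spry1 in CD4 at 5 mg/kg passed without pool 1 of that group (0.66, edgeR adjusted p = 0.0384), Dusp6 in CD4 without its pool 2 (-0.34, edgeR adjusted p = 0.0481), Dusp10 in CD8 without its pool 1 (edgeR adjusted p = 0.0139), and Spry2 in CD8 at 50 mg/kg without its pool 2 or saline pool 2 (edgeR adjusted p = 0.0452 and 0.0472).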
